A study of Mus musculus with 18 samples.

Results

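The subject is the loss of Acly in fresh natural killer (NK) cells, the lymphocytes that kill infected or transformed cells without prior sensitisation. It was taken as the 3 fresh knock-out libraries against the 3 fresh wild-type libraries, which are 6 of the 18 libraries of the series. Knock-out mice carried Acly fl/fl with Rosa YFP/YFP and Ncr1 CRE-ERT2, and wild-type mice carried Rosa YFP/YFP and Ncr1 CRE-ERT2 alone. Both genotypes ate a tamoxifen diet for 48 hours, and 5 days after it ended the YFP-positive splenic NK cells were sorted and, for these libraries, used with no culture. The other 12 libraries are the same 2 genotypes after 72 hours of priming with 100 ng/ml IL-15, or after priming and a further 6 hours on plate-bound NKG2D reagent at 20 ug/ml. The sources used here give neither the age nor the background strain of the mice. They also do not say whether the 3 libraries of a group come from separate mice, and p-values cover only the spread among those libraries, which may be technical.

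Cre-ERT2 is a recombinase that enters the nucleus when tamoxifen binds it. Here it is expressed from Ncr1, the gene of the NK receptor NKp46, so recombination is limited to cells that use that promoter, and the YFP reporter marks cells in which the recombinase was active. A cell with YFP need not have lost both copies of Acly. All groups, wild type included, carry the recombinase and received the drug.

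ATP-citrate lyase, the product of Acly, splits citrate in the cytosol into oxaloacetate and acetyl-CoA. Acetyl-CoA from this route feeds fatty acid and cholesterol synthesis and is a donor for the acetylation of histones. Acss2 makes acetyl-CoA from acetate and is the best known alternative route in the cytosol and nucleus.

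Total counts ran from 20802227 to 33808812 reads in the fresh knock-out libraries and from 19263118 to 24480276 reads in the fresh wild-type libraries, within 14772300 to 34367538 over the whole series. By Xist and Y-linked genes, knock-out replicate 2 and wild-type replicate 1 looked female and the other fresh libraries male. The NK markers were present in every fresh library: the 10 markers summed to 26600, 30980 and 27120 CPM in knock-out and 25200, 25580 and 27390 CPM in wild type, and none of the 10 passed edgeR's test, an unadjusted p below 0.05 or DESeq2. CPM are reads scaled to a common library size, with TMM factors between libraries.

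Acly was lower in all fresh knock-out libraries. It had 15.97, 15 and 25 CPM in knock-out cells, against 234.6, 255.2 and 262.6 CPM in wild-type cells. The 2 groups did not overlap, and the highest knock-out library was far below the lowest wild-type library. The log2 fold change of knock-out over wild type was -3.73 (SE 0.17, 95% interval -4.12 to -3.35), which is 13.3-fold lower, with adjusted p = 7.71e-06 by edgeR's quasi-likelihood test with Benjamini-Hochberg adjustment. The gene occupies chromosome 11, 100476353 to 100528000 (mm10, minus strand). The values are per gene, so reads of the floxed part alone could not be separated.

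Of 13300 genes tested, 780 passed adjusted p 0.05, which is 5.86% of the genes tested. Of these, 256 were higher in knock-out (1.92%) and 524 were lower (3.94%). The rises were small: their median log2 fold change was 0.42, with quartiles of 0.35 and 0.50, and 6 of 256 exceeded 2-fold. The falls were larger, with a median of -0.90 and quartiles of -1.36 and -0.61, and 228 of 524 exceeded 2-fold. The median over all tested genes was -0.0052, and 3091 of the 13300 genes had an unadjusted p below 0.05. DESeq2 called 547 higher and 787 lower of 12451 genes. Counts by either measure in the lists below are to be read beside these.

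Replicates of the genotypes were separated in almost every called gene. All 256 higher genes and 518 of the 524 lower genes had no overlap between the 3 knock-out and 3 wild-type libraries. Over all tested genes, every knock-out library was above every wild-type library in 1841 genes (13.8%) and below in 1980 genes (14.9%). The threshold fell between the predicted gene Gm7143, inside it at adjusted p = 0.0498, and Atf7ip, outside it at 0.0504.

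**Figure D1:**
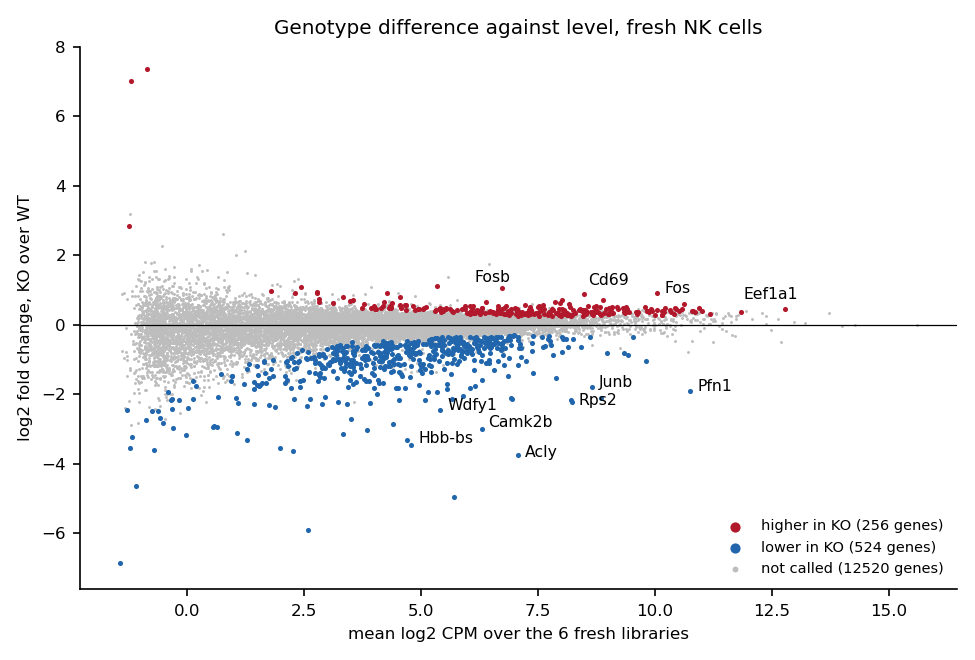
Each point is 1 of the 13300 tested genes, with its mean log2 CPM over the 6 fresh libraries on the x axis and its log2 fold change of knock-out over wild type on the y axis. The 256 higher genes (red) lie mostly within 1 log2 unit of 0 and at mean log2 CPM above 6, and the 524 lower genes (blue) reach further from 0, with Acly at -3.73.

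Higher and lower genes differed in read abundance and in length. Among the 289 genes with a mean log2 CPM of 9 or more, 50 were higher (17.3%) and 5 were lower (1.73%). Among the 5455 genes between 3 and 6, 52 were higher (0.953%) and 295 were lower (5.41%). The median annotated transcript length was 1502 bases for higher genes and 3342 bases for lower genes, against 3002 bases for all tested genes. Among genes with transcripts under 1785.5 bases 4.46% were higher, and among those of at least 4457.5 bases 0.271% were higher. GC content over the first 200 transcript bases had a median of 58.0% in higher genes and 68.5% in lower genes, against 60.0% in all. With GC content and transcript length fitted as an offset for each library, 139 genes were higher and 390 lower, an alternative chosen after seeing the data. Of these, 87 were among the 256 higher genes and 355 among the 524 lower genes. What part transcript composition has in the differences was not tested further.

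A large share of the lower genes also varied several-fold between libraries of 1 genotype in culture, where the genotype is held fixed. In primed wild-type cells replicate 3 stood above replicates 1 and 2, and in NKG2D-stimulated knock-out cells replicates 2 and 3 stood above replicate 1, for the same kind of gene. The primed knock-out libraries spread as well, but no contrast among them was used. Among genes measured in culture, 52.3% of the 457 lower genes were over 2-fold higher in that primed wild-type library than in the other two. The same held for 0.398% of the 251 higher genes and 4.07% of the 9751 genes not called. In the NKG2D knock-out libraries the shares were 38.3% of lower genes, 0.0% of higher genes and 2.43% of genes not called. These counts take 1 direction only. In the other direction, 5 of the 251 higher genes (1.99%) were over 2-fold lower in NKG2D knock-out replicates 2 and 3 than in replicate 1, among them Galnt2l, Gapdh, Rpsa and Slc2a6, against 0.8% of genes not called. The median of that contrast was -0.32 on the log2 scale for higher genes and 0.78 for lower genes, so the higher genes ran the opposite way by less.

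Taken from the cultured libraries alone, 288 genes were over 2-fold higher in the named replicates in both of these contrasts. In fresh cells 156 of the 288 were lower in knock-out (54.2%) and 0 were higher, against 4.37% lower and 2.4% higher among all 10459 genes measured in culture. None of them was higher at an unadjusted p below 0.05 in edgeR or by DESeq2 either. Every knock-out library was below every wild-type library in 207 of the 288 (71.9%), against 14.8% of all genes measured in culture. The median log2(CPM + 1) of the 234 of these genes whose mean log2 CPM reached 3 was 4.77, 4.09 and 4.16 in fresh knock-out libraries and 5.26, 5.30 and 5.19 in fresh wild-type libraries. Knock-out replicate 1 thus lay between the other knock-out libraries and wild type. Among the 524 lower genes, that replicate was the highest of the 3 knock-out libraries in 341 (65.1%), against 34.7% of all tested genes. In primed knock-out replicates 1 to 3 the median of the 234 genes was 5.14, 4.78 and 4.18. Genes that vary among those libraries alone were not sought. When the genes over 2-fold higher in the named replicates in either contrast were left out, also an alternative chosen after seeing the data, 184 genes were higher and 285 lower. Whatever differs between the cultured replicates and the genotype difference in fresh cells cannot be told apart for these genes, and genes over 2-fold higher in the named replicates in either contrast are called library-variable below.

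**Figure D2:**
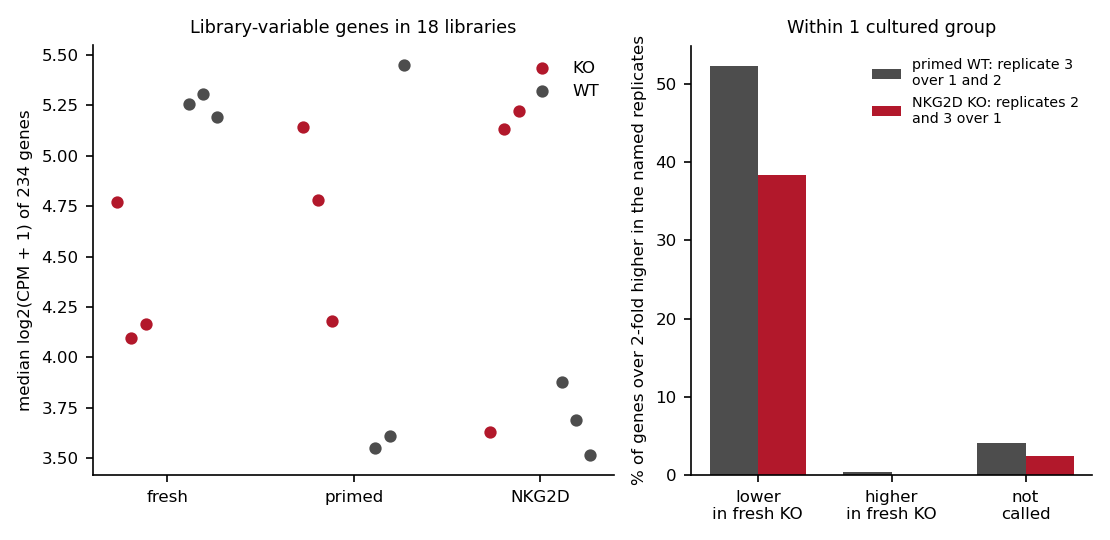
The left panel plots, for each of the 18 libraries, the median log2(CPM + 1) of 234 genes chosen on cultured libraries, with knock-out (red) left of wild type (grey) and replicates 1 to 3 from left to right. Fresh knock-out libraries lie at 4.77, 4.09 and 4.16 and fresh wild-type libraries at 5.26, 5.30 and 5.19. The replicates of primed wild type, primed knock-out and NKG2D knock-out spread more widely than either fresh group. Those of NKG2D wild type, at 3.88, 3.69 and 3.51, spread less than fresh knock-out and more than fresh wild type. The right panel plots the share of genes over 2-fold higher in primed wild-type replicate 3 or in NKG2D knock-out replicates 2 and 3, 52.3% and 38.3% for genes lower in fresh knock-out cells.

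Immediate-early genes moved in both directions. These genes are transcribed soon after a stimulus, before any new protein is made. Of 46 early activation genes tested, 5 were higher and 6 were lower, and the median log2 fold change of the list was 0.046.

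Among the higher ones, Fos, which encodes a subunit of the transcription factor AP-1, had 1316, 1311 and 1523 CPM in knock-out cells, against 767.3, 701.5 and 720.7 CPM in wild-type cells. The groups stood well apart, and the rise of Fos was 0.92 on the log2 scale, with SE 0.09 and adjusted p = 0.000823. Fosb, its close relative, had 117.9, 109.3 and 203.8 CPM in knock-out, against 77.9, 63.9 and 66.4 CPM in wild type. Knock-out replicate 3 was the highest by a wide margin, though the groups did not overlap (log2 fold change 1.05, SE 0.20, adjusted p = 0.019). Dusp1, a phosphatase that inactivates MAP kinases, rose by 0.58 (adjusted p = 0.0184), and Klf6, a zinc-finger factor chosen after its values were seen, rose by 0.46 (adjusted p = 0.0369). Fosb was too low in culture to say whether it is library-variable.

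Cd69, the C-type lectin that marks recently activated lymphocytes and restrains their exit from tissue, rose as well. It had 393.0, 478.5 and 516.1 CPM in knock-out cells, against 244.7, 240.7 and 259.5 CPM in wild-type cells. All knock-out libraries lay above the wild-type libraries, which were close together. The log2 fold change was 0.90 (SE 0.10, 95% interval 0.68 to 1.12, adjusted p = 0.00178).

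Among the lower ones, Junb, which encodes a JUN partner of FOS within AP-1, had 192.5, 139.5 and 206.8 CPM in knock-out and 560.2, 683.3 and 619.2 CPM in wild type. Ier2, an early-response nuclear protein gene, had 135.7, 83.8 and 103.2 CPM in knock-out and 484.8, 520.5 and 435.4 CPM in wild type. Both fell clear of the wild-type range, by 1.79 (SE 0.14, adjusted p = 0.000158) and 2.16 (SE 0.15, adjusted p = 9.08e-05) on the log2 scale, and both were library-variable in culture. Csrnp1, a nuclear factor gene first found as induced by AXIN1, had 115.3, 66.9 and 99.5 CPM in knock-out and 244.3, 248.7 and 235.9 CPM in wild type. It fell by 1.37 (SE 0.16, adjusted p = 0.00216), and in primed wild-type cells it lay just short of the library-variable limit, at 14.8, 12.9 and 27.3 CPM on a scale fitted over all 18 libraries. Gadd45a, Nfkbid and Nr4a2 also fell, by 1.23, 0.66 and 0.62 on the log2 scale, a group picked once their values were known.

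The stretches of 250 bases before the start of Fos, Fosb and Junb are shown because these partners in one transcription factor changed in opposite directions. They are from RefSeq (GRCm38.p6), each on its gene's own strand, 5′ to 3′, at chr12:85473640-85473889 (plus strand), chr7:19310046-19310295 (minus strand) and chr8:84978749-84978998 (minus strand). Capitals mark TGACG, a core of the cyclic AMP response element, searched on both strands (on the other strand it reads CGTCA).
Fos: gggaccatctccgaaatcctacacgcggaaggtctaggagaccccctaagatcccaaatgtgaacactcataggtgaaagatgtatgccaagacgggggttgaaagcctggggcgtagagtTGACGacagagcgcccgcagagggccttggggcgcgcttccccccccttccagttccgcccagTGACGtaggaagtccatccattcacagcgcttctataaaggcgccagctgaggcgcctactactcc
Fosb: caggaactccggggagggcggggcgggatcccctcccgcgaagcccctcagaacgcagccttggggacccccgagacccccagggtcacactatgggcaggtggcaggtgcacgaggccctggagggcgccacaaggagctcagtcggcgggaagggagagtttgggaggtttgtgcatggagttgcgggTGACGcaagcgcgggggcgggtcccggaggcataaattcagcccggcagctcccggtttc
Junb: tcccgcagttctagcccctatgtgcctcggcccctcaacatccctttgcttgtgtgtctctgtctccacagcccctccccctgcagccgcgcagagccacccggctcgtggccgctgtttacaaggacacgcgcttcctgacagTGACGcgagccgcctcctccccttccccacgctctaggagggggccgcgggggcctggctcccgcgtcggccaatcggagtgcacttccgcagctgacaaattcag
Fos held 2 such matches, which begin 129 and 66 bases before its start, Fosb held 1 at 60 bases and Junb held 1 at 106 bases. Among all 32851 RefSeq windows of this length 17.8% held it at least once. GC content was 58.4% in the Fos window, 68.8% in the Fosb window and 66.4% in the Junb window. The match was thus present in the genes that rose and in the one that fell, and no factor's binding was measured.

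Genes that glucocorticoids induce also moved both ways. Tsc22d3, the glucocorticoid-induced leucine zipper, had 515.6, 566.0 and 678.7 CPM in knock-out cells, against 355.6, 345.0 and 361.0 CPM in wild-type cells. Every knock-out library was above every wild-type library, with a rise of 0.73 (SE 0.10, adjusted p = 0.00477). Cxcr4, the receptor of the homing chemokine CXCL12, rose by 0.57 (adjusted p = 0.0273), and Zbtb16, a zinc-finger factor of innate lymphocytes, fell by 0.87 (adjusted p = 0.0486) and was library-variable. In all, 3 of the 22 tested genes of the list were higher and 1 was lower, and its median was -0.12.

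**Figure D3:**
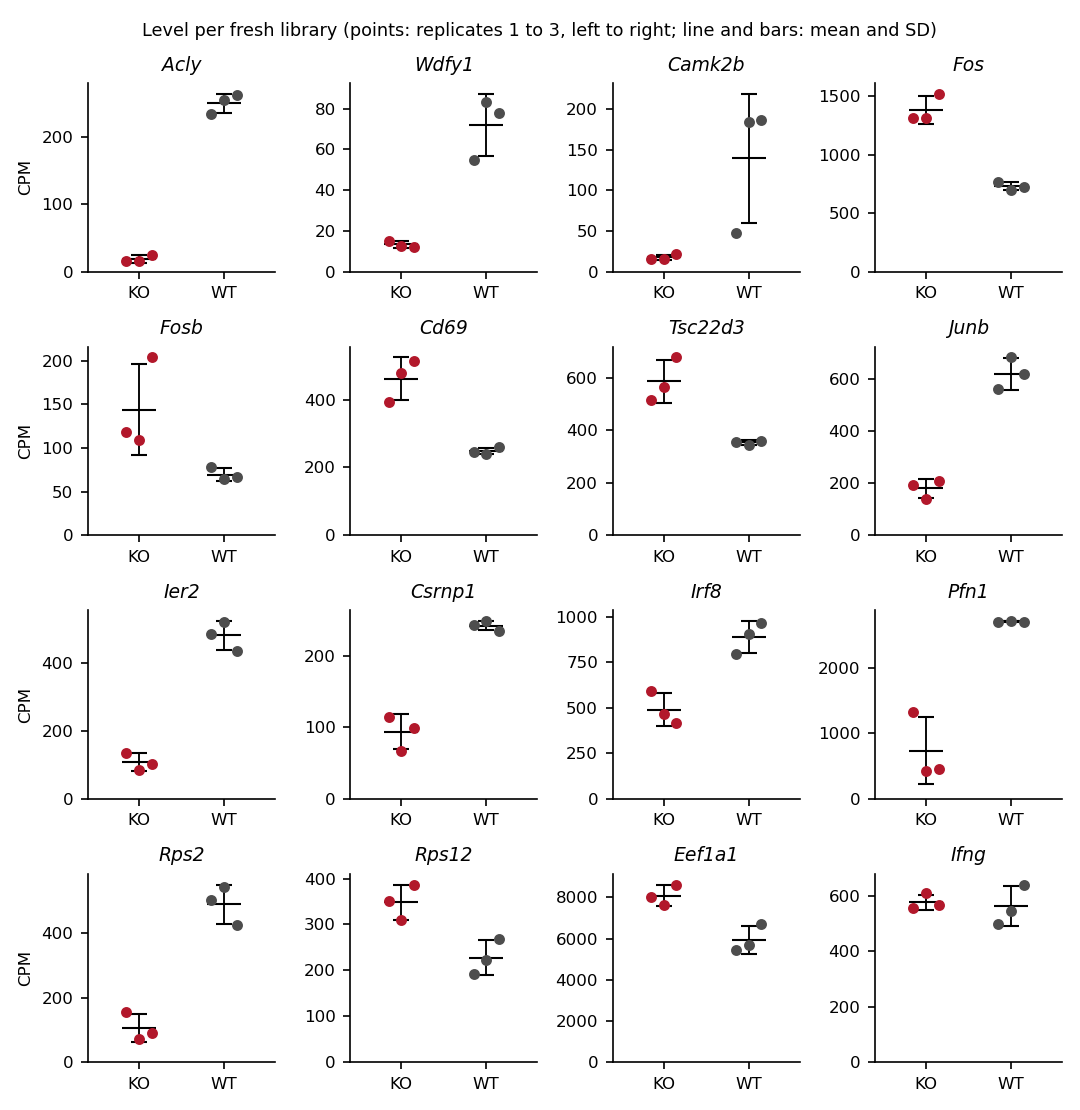
CPM of 16 genes in each fresh library, with the 3 knock-out libraries (red) left of the 3 wild-type libraries (grey) and the mean and SD as bars. Acly, Wdfy1, Junb, Ier2 and Csrnp1 lie lower in knock-out, Fos, Cd69 and Tsc22d3 lie higher, knock-out replicate 1 of Pfn1 lies at 1324 against 424.9 and 449.5 in the other knock-out libraries, and the Ifng groups overlap.

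Cytosolic ribosomal protein genes had the largest share of higher members among the lists examined. Of 79 tested, 54 were higher and 1 was lower, and the list's median log2 fold change was 0.38. Every knock-out library was above every wild-type library in 76 of them, against 13.8% of all tested genes. Their summed level was 90740, 79550 and 95100 CPM in knock-out, against 66730, 68300 and 74530 CPM in wild type. The sums did not overlap, and wild-type replicate 3 came closest to knock-out replicate 2.

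Rps12, which encodes a small-subunit protein, had 350.1, 310.2 and 386.2 CPM in knock-out, against 193.1, 221.8 and 268.7 CPM in wild type (log2 fold change 0.62, SE 0.12, adjusted p = 0.0204). Rpsa, whose protein is also known as the laminin receptor, rose by 0.60 (adjusted p = 0.0404), Rps20 by 0.54 (adjusted p = 0.01) and Rpl38 by 0.50 (adjusted p = 0.0113). These genes have many processed pseudogenes, and reads that fit a gene and its copies may have been split. Of 807 processed pseudogenes tested, 19 were higher (2.35%) and 13 were lower (1.61%). The median log2 fold change of these pseudogenes was 0.16, against -0.0052 for all tested genes. With the offset for GC content and transcript length the ribosomal protein list's median was 0.25, where the main value was 0.38.

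Rps2 was the 1 lower member of the list. It had 155.4, 72.5 and 90.6 CPM in knock-out, against 501.8, 540.9 and 422.6 CPM in wild type. The fall of 2.20 (SE 0.23, adjusted p = 0.00145) separated all libraries, and Rps2 was library-variable in culture. Over the primed wild-type libraries it stood at 166.6, 182.1 and 1507 CPM, on a scale fitted over all 18 libraries.

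Eef1a1, the elongation factor that brings aminoacyl-tRNA to the ribosome, had 8001, 7641 and 8621 CPM in knock-out, against 5444, 5680 and 6688 CPM in wild type (log2 fold change 0.45, SE 0.11, adjusted p = 0.0415). Of 32 ribosome biogenesis genes, 2 were higher and 0 lower, with a median of 0.18: Pes1, of large-subunit assembly, rose by 0.32 (adjusted p = 0.0282), and Nop10, a component of the particles that modify ribosomal RNA, by 0.33 (adjusted p = 0.0396). Among the 32, 30 fold changes were above 0. Every knock-out library was above every wild-type library in 13 of them, against 13.8% of all tested genes.

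**Figure D4:**
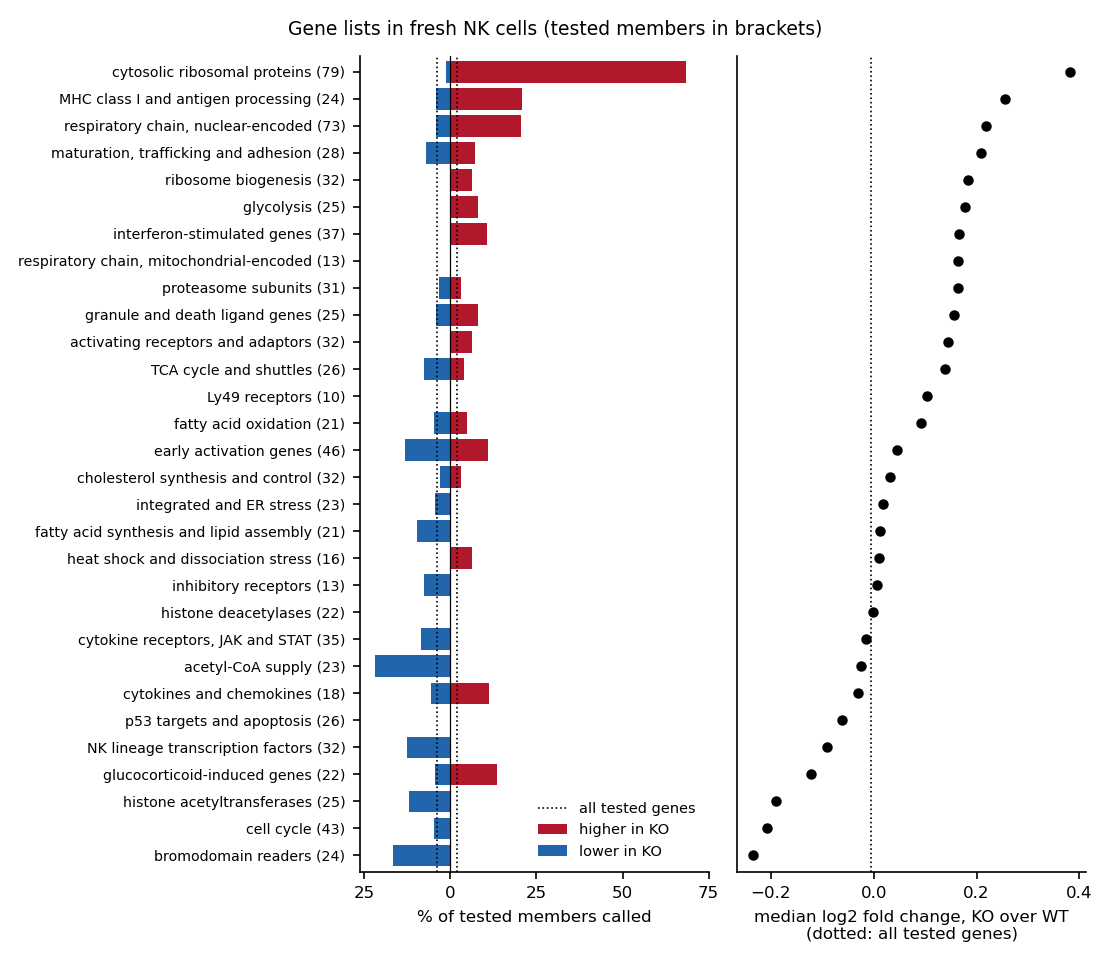
For each of 30 gene lists with at least 10 tested members, the left panel plots the percentage of tested members called lower (blue, to the left) and higher (red, to the right) in knock-out, and the right panel the median log2 fold change. Dotted lines give all tested genes (1.92% higher, 3.94% lower, median -0.0052), and cytosolic ribosomal proteins stand furthest to the right with a median of 0.38.

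Fold changes of nuclear genes of the respiratory chain were mostly above 0, in smaller steps. Of 73 tested, 15 were higher and 3 were lower, with a median of 0.22. In that list 67 fold changes were above 0, and DESeq2 called 26 genes higher and 3 lower. Every knock-out library was above every wild-type library in 52 of the 73 and below in 3. Over all tested genes the shares were 13.8% above and 14.9% below. Atp5g2, a subunit of the membrane ring of ATP synthase, had 122.4, 130.7 and 145.0 CPM in knock-out, against 92.5, 83.5 and 98.3 CPM in wild type, and rose by 0.54 (SE 0.09, adjusted p = 0.01). The 3 lower members, Ndufab1, the mitochondrial acyl carrier protein, Cox5a and Cyc1, fell by 2.16, 2.03 and 1.80, and all of them were library-variable. None of the 13 genes encoded in mitochondrial DNA passed edgeR's test. Their median was 0.16, all 13 fold changes were above 0, 4 were higher at an unadjusted p below 0.05 and DESeq2 called 2 higher. In glycolysis 2 of 25 genes were higher and 0 lower, namely Gapdh (log2 fold change 0.46, adjusted p = 0.0311) and Tpi1 (0.39, adjusted p = 0.022). All knock-out libraries were above all wild-type libraries in 12 of 25, against 13.8% of all tested genes.

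Genes of acetyl-CoA supply gave 5 lower and 0 higher members of 23 tested. Besides Acly itself these were both acetyl-CoA synthetases and a pair of pyruvate dehydrogenase kinases, the inhibitors of the step from pyruvate to acetyl-CoA. Acss2 had 45.3, 33.7 and 32.0 CPM in knock-out, against 68.0, 78.2 and 79.4 CPM in wild type. It fell by 1.02 (SE 0.14, adjusted p = 0.00477), with no overlap between groups. Acss1, the mitochondrial enzyme, fell by 1.34 (adjusted p = 0.00585), and Pdk2 and Pdk3 had log2 fold changes of -1.20 and -1.02, these 2 chosen after their values were seen. All 4 were library-variable in culture. Slc25a1, which carries citrate out of mitochondria to ATP-citrate lyase, had 3.80, 5.82 and 6.03 CPM in knock-out, against 4.62, 4.67 and 4.52 CPM in wild type, and did not pass the test (adjusted p = 0.666).

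Few genes that use cytosolic acetyl-CoA for lipids passed the test. Fasn, fatty acid synthase, had 57.4, 58.8 and 60.8 CPM in knock-out and 56.9, 55.6 and 68.8 CPM in wild type, with overlapping groups and a log2 fold change of -0.03 (SE 0.10, adjusted p = 0.885). In the cholesterol list 1 of 32 genes was higher, Dhcr7, which makes cholesterol in the last step of the pathway (0.50, adjusted p = 0.0166), and 1 was lower, Mylip, which targets the LDL receptor for degradation (-0.51, adjusted p = 0.0364). In the fatty acid list 2 of 21 were lower and 0 higher: the desaturase gene Scd2 (-0.40, adjusted p = 0.0494) and Dgat1, which completes triglycerides (-0.59, adjusted p = 0.0478).

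A few genes of histone acetyltransferases and bromodomain proteins passed the test, all of them lower, and most fold changes in both lists were below 0. Of 25 histone acetyltransferase genes 3 were lower and 0 higher, with a median of -0.19 and 21 fold changes below 0. Every knock-out library was below every wild-type library in 13 of the 25, against 14.9% of all tested genes. Crebbp, the CREB-binding acetyltransferase, had 264.8, 280.0 and 234.9 CPM in knock-out, against 340.4, 392.7 and 302.5 CPM in wild type. It fell by 0.41 (SE 0.10, adjusted p = 0.0464). Kat2a, the GCN5 acetyltransferase, fell by 0.83 (adjusted p = 0.0415) and Taf1, a subunit of the general factor TFIID, by 0.43 (adjusted p = 0.0289). Of 24 bromodomain genes, whose proteins read acetylated lysine, 4 were lower and 0 higher, with a median of -0.23. In that list 22 fold changes were below 0, and DESeq2 called 8 genes lower and 0 higher. Every knock-out library was below every wild-type library in 11 of the 24, against 14.9% of all tested genes. Phip, a ubiquitin ligase adaptor, fell by 0.81 (adjusted p = 0.00477), Brwd1 by 0.48 (adjusted p = 0.0316) and Brd1 by 0.38 (adjusted p = 0.0306). None of the 22 histone deacetylase genes passed edgeR's test, and their median was -0.0022. At an unadjusted p below 0.05, 3 were higher and 3 lower, and DESeq2 called 2 lower. Over all genes 3091 of 13300 had such a p, and DESeq2 called 547 higher and 787 lower of 12451.

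Transcription factors of the NK lineage had 4 lower and 0 higher members of 32, with a median of -0.09. In that list 28 fold changes were below 0, and DESeq2 called 6 genes lower and 2 higher. Every knock-out library was below every wild-type library in 8 of the 32 and above in 2. Over all tested genes the shares were 14.9% below and 13.8% above. Irf8, which supports NK as well as myeloid development, had 588.9, 463.6 and 414.7 CPM in knock-out, against 792.5, 904.2 and 967.1 CPM in wild type. The groups did not overlap, and the fall was 0.86 (SE 0.13, adjusted p = 0.00628), for a library-variable gene. Runx3, which controls NK and CD8 T cell programmes, had 117.9, 122.1 and 116.3 CPM in knock-out and 146.4, 159.9 and 148.1 CPM in wild type. It fell by 0.35 (SE 0.07, adjusted p = 0.0208) and was not library-variable. Runx1 fell by 0.48 (adjusted p = 0.0408) and Foxo3, a factor of quiescence chosen after its values were seen, by 0.44 (adjusted p = 0.0449). The T-box factors that define NK cells did not pass the test, with Tbx21 at -0.15 (adjusted p = 0.278) and Eomes at -0.09 (adjusted p = 0.674).

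Few receptor and effector genes passed the test. Of 32 activating receptor and adaptor genes 2 were higher and 0 lower, with a median of 0.14: Fcgr3, the antibody receptor of NK cells, rose by 0.39 (adjusted p = 0.0236) and Hcst, the DAP10 adaptor of NKG2D, by 0.36 (adjusted p = 0.0405). In that list 29 fold changes were above 0, and DESeq2 called 7 genes higher and 0 lower. Every knock-out library was above every wild-type library in 10 of the 32, against 13.8% of all tested genes. Klrk1, the gene of NKG2D, had 1450, 1334 and 1335 CPM in knock-out and 1191, 1253 and 1228 CPM in wild type, and did not pass (log2 fold change 0.17, adjusted p = 0.221). None of the 10 tested Ly49 receptor genes passed edgeR's test or DESeq2, and 1 was lower at an unadjusted p below 0.05. Lag3, an inhibitory receptor, fell by 2.06 (adjusted p = 0.019) at 5.07, 2.15 and 1.77 CPM in knock-out, against 18.4, 8.67 and 9.97 CPM in wild type, and was library-variable.

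Among granule genes, 2 of 25 were higher and 1 lower. Gzmm, a granzyme with its own substrate preference, had 32.8, 22.5 and 33.0 CPM in knock-out, against 13.7, 15.8 and 21.6 CPM in wild type, a rise of 0.79 (SE 0.19, adjusted p = 0.0407). The lowest knock-out library was just above the highest wild-type library. Ctsw, a cathepsin of cytotoxic cells, rose by 0.41 (adjusted p = 0.0232), and Stx11, a syntaxin needed for granule release, fell by 1.18 (adjusted p = 0.00477) as a library-variable gene.

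The main effectors did not pass the test. Ifng had 556.9, 607.6 and 565.5 CPM in knock-out and 499.0, 544.5 and 639.8 CPM in wild type, with overlapping groups (log2 fold change 0.04, SE 0.10, adjusted p = 0.851). Gzmb had a log2 fold change of -0.20 (SE 0.13, adjusted p = 0.385), Prf1 of 0.06 (SE 0.12, adjusted p = 0.826) and Gzma of 0.07 (SE 0.12, adjusted p = 0.765). Of 18 cytokine and chemokine genes, Xcl1, a chemokine for dendritic cells, rose by 0.46 (adjusted p = 0.037) and Il16 by 0.38 (adjusted p = 0.0153), and Ltb, a membrane lymphotoxin subunit, fell by 2.25 (adjusted p = 0.0471). Ltb spread from 7.37 to 50.7 CPM within wild type, with replicate 1 the highest, and was library-variable.

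Genes of trafficking gave 2 higher and 2 lower members of 28. Cxcr3, the receptor of interferon-induced chemokines, had 197.0, 153.2 and 191.3 CPM in knock-out, against 146.1, 102.2 and 111.6 CPM in wild type, a rise of 0.59 (SE 0.14, adjusted p = 0.037). Itgb7, the integrin chain of gut homing, fell by 1.52 (adjusted p = 0.00477) and was library-variable, and Itga4, its partner, fell by 0.35 (adjusted p = 0.0354). Klf2, which maintains quiescence and exit receptors, missed the threshold at 0.39 (adjusted p = 0.0568), and its target S1pr1 at 0.31 (adjusted p = 0.144).

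Called genes of antigen processing and interferon response were mostly higher, by small amounts. In the MHC class I list 5 of 24 were higher and 1 lower. Psme1 and Psme2, the proteasome activator pair, rose by 0.44 (adjusted p = 0.0168) and 0.29 (adjusted p = 0.0372), and Psmb9, an immunoproteasome subunit, by 0.37 (adjusted p = 0.0302). Pdia3, a chaperone of class I loading, had 283.5, 128.7 and 110.3 CPM in knock-out, against 900.3, 762.4 and 587.3 CPM in wild type, and fell by 2.11 (SE 0.31, adjusted p = 0.00628) as a library-variable gene. Of 37 interferon-stimulated genes 4 were higher and 0 lower, led by Ifi47 (0.42, adjusted p = 0.015) and Irf1 (0.45, adjusted p = 0.0338). Of 43 cell cycle genes 2 were lower and 0 higher: Ccnd3, a cyclin of G1, fell by 0.65 (adjusted p = 0.00477) and Mcm6, of the replicative helicase, by 1.15 (adjusted p = 0.0365), both library-variable. The cell cycle list had a median of -0.21, and 32 of its fold changes were below 0. Every knock-out library was below every wild-type library in 4 of the 43 and above in 1.

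In the remaining lists few members passed. In cytokine signalling 3 of 35 were lower and 0 higher, namely the interferon receptor chain Ifnar2, the feedback inhibitor Socs3 and Stat3, at -1.28, -1.02 and -0.57. Ifnar2 and Stat3 were library-variable and Socs3 was too low in culture to say. In the citrate cycle list 1 of 26 was higher, Sdhc of complex II (0.32), and 2 were lower, Idh2 (-2.12) and Me2 (-1.02), both library-variable. Of the 26 fold changes 21 were above 0, and DESeq2 called 4 higher and 2 lower. Every knock-out library was above every wild-type library in 13 of these genes and below in 2. Over all tested genes the shares were 13.8% above and 14.9% below. In fatty acid oxidation Acot7, a thioesterase, rose by 0.33 and Acadl, a dehydrogenase, fell by 0.96, of 21 tested. Of these 21 fold changes 18 were above 0, with 6 genes separated upward and 2 downward in all libraries. In the proteasome list Psmd13 rose by 0.33 and Psmd3 fell by 1.41, of 31. In that list 29 fold changes were above 0, and DESeq2 called 6 genes higher and 1 lower. Every knock-out library was above every wild-type library in 26 of them, against 13.8% of all tested genes. The falls of Acadl and Psmd3, and of Sdf2l1 below, were in library-variable genes. Sdf2l1, a chaperone of the endoplasmic reticulum, was the 1 lower gene of 23 in the stress response list (-2.14), Hspe1, a mitochondrial chaperonin, was the 1 higher gene of 16 in the heat shock list (0.34), and none of 26 p53 and apoptosis genes passed edgeR's test. At an unadjusted p below 0.05, 2 of the 26 were higher and 4 lower, and DESeq2 called 1 each way. Over all genes 3091 of 13300 had such a p, and DESeq2 called 547 higher and 787 lower of 12451.

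Large falls outside the lists were in genes of varied function. Wdfy1, an endosomal protein with a FYVE domain, had 15.2, 12.7 and 12.2 CPM in knock-out, against 54.6, 83.4 and 78.1 CPM in wild type (log2 fold change -2.43, SE 0.17, adjusted p = 8.45e-05). It was not library-variable and stayed lower in culture: 2.71, 7.89 and 7.85 CPM in primed knock-out and 85.3, 151.5 and 150.7 CPM in primed wild type, on the scale of all 18 libraries. Camk2b, a calcium and calmodulin kinase subunit, had 15.3, 15.7 and 21.1 CPM in knock-out, against 47.9, 184.6 and 186.4 CPM in wild type. Wild-type replicate 1 lay far below the other wild-type libraries, and the log2 fold change of -3.00 (SE 0.42, adjusted p = 0.00559) had a wide 95% interval, -3.93 to -2.06.

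Pfn1, which encodes the actin-binding protein profilin, showed how far 1 library could stand apart. It had 1324, 424.9 and 449.5 CPM in knock-out, against 2712, 2722 and 2707 CPM in wild type. Knock-out replicate 1 lay well above the other two, and the wild-type libraries were nearly identical. The fall was 1.89 (SE 0.36, adjusted p = 0.0184), and in primed wild-type cells Pfn1 ran from 238.6 and 246.5 to 3611 CPM. H2ax, Tm2d1, Tmem203, Trim14, Ndufab1, Gimap1 and Maf1 completed this group of library-variable falls, at -2.11 to -3.03.

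Among genes with a mean log2 CPM above 3, rises outside the lists included Galnt2l, Slc2a6 and Ctla2a. Galnt2l, annotated beside and overlapping Galnt2, had 45.4, 52.3 and 67.2 CPM in knock-out, against 26.9, 18.3 and 30.6 CPM in wild type (1.12, SE 0.19, adjusted p = 0.0118). Galnt2 itself, chosen after its values were seen, fell by 1.92, and reads of the 2 overlapping genes may have been divided between them. Slc2a6, a lysosomal sugar transporter, rose by 0.91 (adjusted p = 0.0372) and Ctla2a, a cysteine protease inhibitor of mouse lymphocytes, by 0.73 (adjusted p = 0.0183). Tagap, Cd300lf, Gadl1 and Tbc1d7 rose by 0.64 to 0.66.

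Some markers of red cells and of macrophages moved with genotype. Hbb-bs, a beta globin gene, had 4.48, 3.81 and 5.42 CPM in knock-out, against 46.5, 68.7 and 36.6 CPM in wild type (-3.45, SE 0.24, adjusted p = 8.45e-05). The 17 red cell and platelet markers in the count table summed to between 29.6 and 34.4 CPM in knock-out and between 126.0 and 217.1 CPM in wild type, and 5 of 10 tested were lower. The macrophage, monocyte and neutrophil list had 4 lower members of 13 tested and a median of -1.31, at low levels: Vcam1 had 0.814, 2.40 and 0.457 CPM in knock-out and 4.86, 7.45 and 6.02 CPM in wild type. The whole list summed to between 334.7 and 364.6 CPM in knock-out and between 371.3 and 378.4 CPM in wild type, mostly Ctsb, and Retnlg was at 0 in all libraries. Fewer such cells in the sort and less of these RNAs per cell cannot be told apart in bulk samples, and what part other cells have in the other differences was not tested.

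The remaining marker lists gave few calls. Of 10 B cell genes tested Ighm was higher (0.34, adjusted p = 0.0344), though the list's sum overlapped between genotypes. Of 11 T cell genes Cd28, which NK cells of mice can also express, was higher (0.53, adjusted p = 0.0289). All 11 fold changes were above 0, DESeq2 called 2 higher, and the list summed to 850.5, 739.4 and 895.1 CPM in knock-out and 737.1, 637.2 and 632.8 CPM in wild type, with no overlap. Its part in other results was not tested. The 14 genes of other innate lymphoid cells gave no call by edgeR, with 1 higher at an unadjusted p below 0.05 and by DESeq2, and their sums overlapped at 731.2, 805.5 and 530.0 CPM in knock-out and 843.8, 497.6 and 523.4 CPM in wild type. In the dendritic cell list Irf8 was the 1 lower gene, and of 4 stroma genes none passed edgeR's test or DESeq2, with 1 higher at an unadjusted p below 0.05.

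Genes near Acly on chromosome 11 held a larger share of calls, a difference that was not tested. Within 10 Mb of Acly, 24 of 226 tested genes were called (10.6%), 10 higher and 14 lower. Beyond that window on the chromosome it was 48 of 805 (5.96%), and on the other chromosomes 707 of 12257 (5.77%). Jup, a junction protein gene 107.4 kb towards the start of the chromosome from Acly, fell by 1.16, and Kat2a lies 228.4 kb on the other side. Nme1, Nme2 and the read-through gene Gm20390, which overlap each other, gave 3 of the 10 higher calls. The wild-type mice, per the labels, did not carry the floxed allele, so DNA linked to that allele may differ between the groups and cannot be told apart here from the loss of Acly.

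Few fresh calls recurred as calls after culture in other libraries of the same genotypes. In primed cells, tested on their own 6 libraries, 4.28% of the genes tested in both conditions were higher and 4.46% were lower in knock-out. Of 254 genes higher in fresh knock-out cells, 13 were also higher in primed cells (5.12%) and 40 were lower (15.7%). Of 490 genes lower in fresh cells, 4 were lower when primed (0.816%) and 7 were higher (1.43%). Together 2.28% of the fresh calls were called in the same direction and 6.32% in the opposite one, and the rest were not called. Many of the lower genes are library-variable, and the spread among primed wild-type libraries widened their SEs. The SE was 1.12 for Pfn1 and 0.88 for Rps2 in primed cells, against 0.36 and 0.23 in fresh cells. For such genes a missing call does not show that a difference was absent.

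After NKG2D the background was 8.39% higher and 8.16% lower. Of 255 genes higher in fresh cells, 10 were higher (3.92%) and 91 lower (35.7%). Of 493 genes lower in fresh cells, 7 were lower (1.42%) and 135 higher (27.4%). Of the 457 lower genes measured in culture, 175 were over 2-fold higher in NKG2D knock-out replicates 2 and 3 than in replicate 1. How many of the 135 are among those 175 was not counted. Together 2.27% of the fresh calls were called in the same direction and 30.2% in the opposite one, and the rest were not called. The labels do not say whether libraries of the same number come from the same mice in the 3 conditions, and the sex patterns recur by number.

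Of the fresh calls, 10 were called in the same direction in all 3 conditions. Genes that kept their sign in culture without passing the test there are not among these 10. They were Acly, Wdfy1 and the predicted genes Gm43305 and Gm49980, all lower, and Tsc22d3, Cxcr4, Dhcr7, Gzmm, Klhl6 and Fn3krp, all higher, of which the predicted genes, Klhl6 and Fn3krp were chosen after their values were seen. Tsc22d3 rose by 0.73 in fresh, 0.77 in primed (adjusted p = 0.0116) and 0.80 in NKG2D-stimulated cells (adjusted p = 0.00293). Gzmm rose by 0.79, 4.58 and 2.69. A further 29 genes were called in the opposite direction in both cultured conditions, and 26 of them were higher in fresh knock-out cells.

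**Figure D5:**
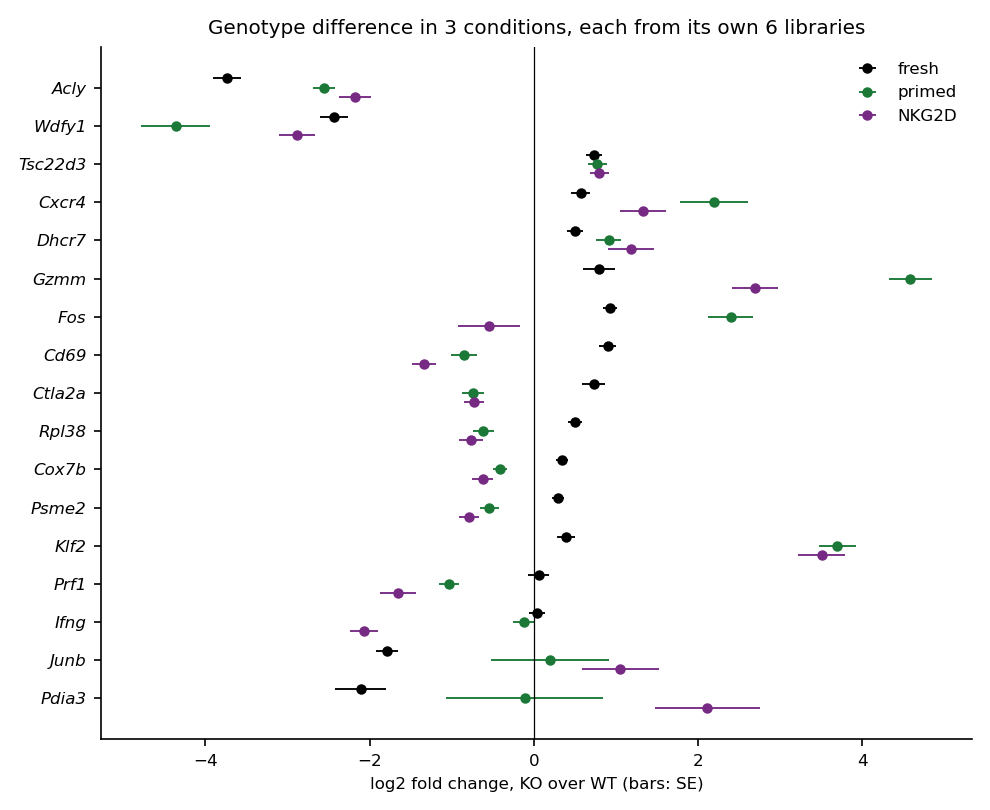
Log2 fold change of knock-out over wild type with its SE for 17 genes in fresh (black), primed (green) and NKG2D-stimulated (purple) cells, each from its own 6 libraries. Tsc22d3 lies at 0.73, 0.77 and 0.80, Cd69 at 0.90, -0.85 and -1.34, and Klf2 at 0.39, 3.70 and 3.50.

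The calls differed in how far they depended on single libraries. Without knock-out replicate 3 there were 15 higher and 138 lower genes, and without wild-type replicate 2 there were 13 higher and 163 lower. Of the 256 higher genes, 5 remained called in each of the 6 fits that left out 1 library: Fos, Cd69, Tsc22d3, Gm20390 and Kcnip3, a potassium channel partner, the last 2 chosen after their values were seen. Of the 524 lower genes, 121 remained called in each, among them Acly, Wdfy1, Camk2b, Csrnp1, Junb, Ier2 and the haemoglobin genes. Of those 121, 91 were library-variable, 20 were not, and 10 were too low in culture to say. The authors' deposited table of the fresh comparison listed 969 genes higher and 971 lower at adjusted p 0.05. Of the 770 genes called here that it holds, 91.9% were called by the authors with the same sign, and these were 36.8% of the authors' calls among shared genes.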

How the data were processed

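Bulk RNA sequencing libraries were made from total RNA (RNeasy) with a Takara SMARTer kit, per the labels' protocols. Per the submitters' processing notes, bcl2fastq, DRAGEN, edgeR and the mm10 build were used, and the sources used here give no versions or roles. The deposited count table holds expected counts, unnormalised, since 29.95% of the values above 0 are not whole, with 55774 entries for 55487 gene identifiers. The labels mention no molecular identifiers, so reads are not independent molecules. The authors' deposited table of the fresh comparison gives a log2 fold change and p-values per gene, per the file headers, and was used for the overlap of calls alone.

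Expected counts were rounded to whole numbers. The 6 fresh libraries were fitted alone with edgeR 4.0.16 in R 4.3.3: TMM factors, the tool's own filter on low counts, and the quasi-likelihood test of knock-out over wild type with Benjamini-Hochberg adjustment over all 13300 genes tested and a threshold of 0.05. The common biological coefficient of variation was 0.157, with 4 residual and 6.37 prior degrees of freedom. SEs are the log2 fold change over the root of F. Primed and NKG2D-stimulated cells were fitted the same way on their own 6 libraries each, and differences between conditions come from 1 fit of all 18. No fresh library was a copy of another of its genotype, and other pairs were not compared. Coordinates, transcript lengths and GC content are from GENCODE M21 (mm10), and promoters from RefSeq (GRCm38.p6). The scripts were tested on simulated data.

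Named genes are Acly, the 15 largest separated rises and falls whose mean log2 CPM reached 3, the 10 called genes of highest level, up to 3 called genes in each direction per list, and 16 fixed genes. Others are marked as chosen after their values were seen. Some items are not reported here. The genes and lists were chosen with earlier results of these data known. Alternatives were RLE factors, filters, a replicate block, sex pattern as a covariate, a required fold of 1.5, all 18 libraries, DESeq2 1.42.0, limma 3.58.1 (voom) and leaving out each library.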

Additional observations from a re-analysis of the deposited data

Results flagged for a closer look

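In 1 fit of all 18 libraries, the genotype effect differed between fresh and primed cells in 40 of the 120 named genes, and between fresh and NKG2D-stimulated cells in 77 of 120, at adjusted p 0.05 by edgeR's test of the difference. Over all 13300 genes tested the shares were 11.3% and 17.7%, and 107 of the 120 were chosen with their fresh call as a condition, which favours a difference, so the counts are a description. Acly itself differed, by -1.14 on the log2 scale from primed cells (adjusted p = 0.0131) and by -1.54 from NKG2D-stimulated cells (adjusted p = 0.0014), so its fall was larger in fresh cells.

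Gzmm differed by -3.75 (adjusted p = 1.31e-05) from primed and by -1.88 (adjusted p = 0.00256) from NKG2D-stimulated cells, and its rise was smaller in fresh cells. For Cd69, higher in fresh knock-out cells and lower in both cultured conditions, the difference was 1.80 (adjusted p = 0.00013) and 2.26 (adjusted p = 1.71e-05). Ctla2a followed the same pattern at 1.52 (adjusted p = 0.000366) and 1.48 (adjusted p = 0.000306).

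Rpl38, a ribosomal protein gene, differed by 1.17 (adjusted p = 0.000875) and 1.29 (adjusted p = 0.000332). Cox7b, a subunit of cytochrome oxidase, differed by 0.80 (adjusted p = 0.000736) and 0.98 (adjusted p = 0.000139). Psme2, of the proteasome activator, differed by 0.89 (adjusted p = 0.00128) and 1.11 (adjusted p = 0.000201). These genes were chosen for being called in opposite or the same directions across conditions. No cause of these differences was tested.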

How the results depend on the processing

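Against 256 higher and 524 lower genes, there were 651 and 1083 when genes of low counts were kept, 547 and 787 by DESeq2, 2 and 57 with more than 1.5-fold required, and 2 and 8 in the fit of all 18 libraries. Sex pattern as a covariate gave 399 higher and 671 lower. With the GC and length offset 139 were higher, and without library-variable genes 285 were lower, of which 260 were among the 524. Both of these last settings were chosen after seeing the data. Leaving out 1 library gave 13 to 451 higher and 138 to 756 lower genes. Besides knock-out replicate 3 and wild-type replicate 2, higher genes moved by over 1.5 times without knock-out replicate 1 (69), knock-out replicate 2 (140) or wild-type replicate 3 (451), and lower genes without knock-out replicate 2 (231). The share of fresh calls with the same direction in primed cells was 5.0% in the fit of all 18 libraries, against 2.28%. The replicate block gave 397 higher and 646 lower genes. Knock-out and wild-type libraries of the same number had correlations of -0.072, -0.045 and 0.11 in their deviations from group means. The largest with a wild-type library of another number were 0.056, 0.16 and -0.0091. The main fit did not pair them by number, and with so few libraries these values cannot exclude a shared source. Of the 106 called named genes besides Acly, 104 kept their call by DESeq2, 68 with the GC and length offset, 8 in the fit of all 18 libraries, and 35 to 94 when 1 library was left out. No named gene reversed. The cause of these changes was not tested. With 3 libraries a group and a common coefficient of variation of 0.157, small differences in genes of low counts could not be detected.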

Other observations

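Apoe and Slc40a1, both outside the lists and chosen after their values were seen, were also lower in fresh knock-out cells. Apoe, which encodes a lipid carrier, had 1.04, 0.440 and 0.426 CPM in knock-out, against 5.99, 9.71 and 6.08 CPM in wild type. Slc40a1, the iron exporter ferroportin, had 1.90, 2.59 and 1.10 CPM in knock-out, against 6.54, 9.99 and 7.27 CPM in wild type. The groups did not overlap for either gene, and both levels were low in all libraries.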
